A study of Homo sapiens with 9 samples.

Results

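The genes described here are 9 genes of MHC class I antigen presentation: HLA-B, HLA-C, HLA-E, B2M, TAP1, TAP2, TAPBP, PSMB8 and PSMB9. They were chosen by name from the pathway, not by any measured value, and are 9 of 23278 entries in the deposited expression table (spike-in RNAs not counted). All 9 had a mean of at least 1 FPKM (fragments scaled by transcript length and by library size) over the libraries and are therefore among the 11952 genes tested. The study asked how loss of STAG2, a cohesin subunit, alters the transcriptome of RT112 cells, a human line established from bladder carcinoma. RNA was sequenced in 3 groups of 3 libraries. Controls received a short hairpin RNA that serves as control (shNT), and the other 2 groups received hairpin sh1 or hairpin sh2, each directed at STAG2. All 9 libraries came from transduced RT112 cells that were kept in medium without serum before RNA extraction, and all received ERCC spike-in RNA. RT112 is 1 cell line, grown without immune cells or added interferon as far as the labels say. Whether the 3 replicates of a group were separate cultures is not in the labels. The p-values therefore reflect only how far these libraries differ, and that spread may be technical.

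MHC class I molecules display short peptides from the cell's own proteins to CD8 T cells. Proteasomes cut proteins into peptides, the TAP transporter carries the peptides into the endoplasmic reticulum, tapasin helps to load them, and a heavy chain paired with beta-2-microglobulin carries them to the surface. Interferon raises most of these genes through factors such as IRF1 and NLRC5, and tumours that lose them can escape T cells. B2M lies on chromosome 15, and the other genes lie in or beside the MHC region of chromosome 6.

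Promoter sequences are shown because most of these genes varied together across the libraries and share control elements that are well described. RefSeq windows of 300 bases (250 before and 50 after the start site, build GRCh38.p14) were matched by symbol for 8 of the 9 genes. HLA-E had no entry. The expression values were made on hg19 and carry no coordinates, so the windows serve for sequence only. Capitals mark every match, on either strand, to 4 motifs: the core of the interferon response element (GAAANNGAAA), the core of enhancer A, an NF-kB site of class I genes (GGGGATTC), a motif like the X2 box (TGACG) and the Y box (CCAAT). The classical heavy chain genes HLA-B (chr6:31357130-31357429, minus strand) and HLA-C (chr6:31272043-31272342, minus strand) come first, because their windows are 88.5% identical in a global alignment.

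HLA-B: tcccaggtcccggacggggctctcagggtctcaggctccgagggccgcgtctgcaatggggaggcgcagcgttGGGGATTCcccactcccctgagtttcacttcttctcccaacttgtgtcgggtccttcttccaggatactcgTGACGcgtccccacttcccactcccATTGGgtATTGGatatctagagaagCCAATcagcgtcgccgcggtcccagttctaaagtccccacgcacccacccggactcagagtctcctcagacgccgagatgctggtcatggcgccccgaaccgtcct

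HLA-C: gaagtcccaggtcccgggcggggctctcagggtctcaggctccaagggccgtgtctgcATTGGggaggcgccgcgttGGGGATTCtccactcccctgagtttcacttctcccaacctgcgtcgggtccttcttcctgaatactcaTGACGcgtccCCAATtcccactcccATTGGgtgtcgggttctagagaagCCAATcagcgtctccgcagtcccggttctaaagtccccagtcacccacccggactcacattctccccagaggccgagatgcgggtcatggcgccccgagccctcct

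TAP1 (chr6:32853655-32853954, minus strand) and PSMB9 (chr6:32853942-32854241, plus strand) are shown next because they run in opposite directions from start sites 488 bases apart, and their windows overlap by 13 bases.

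TAP1: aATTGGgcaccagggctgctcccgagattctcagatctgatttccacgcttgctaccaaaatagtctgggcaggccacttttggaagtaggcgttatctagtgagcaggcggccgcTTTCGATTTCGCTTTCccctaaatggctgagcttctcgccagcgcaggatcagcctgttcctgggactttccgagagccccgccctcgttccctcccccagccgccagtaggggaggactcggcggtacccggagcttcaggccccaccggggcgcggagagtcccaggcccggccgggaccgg

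PSMB9: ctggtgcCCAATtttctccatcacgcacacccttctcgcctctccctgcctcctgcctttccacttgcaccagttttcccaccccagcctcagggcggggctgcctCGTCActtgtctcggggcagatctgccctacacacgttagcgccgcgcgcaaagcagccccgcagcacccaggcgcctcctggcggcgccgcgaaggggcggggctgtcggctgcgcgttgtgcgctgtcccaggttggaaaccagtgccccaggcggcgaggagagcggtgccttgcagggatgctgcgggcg

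B2M (chr15:44711267-44711566, plus strand) and TAPBP (chr6:33314029-33314328, minus strand) are shown because both hold the interferon element core, while TAPBP varied less among the libraries than B2M.

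B2M: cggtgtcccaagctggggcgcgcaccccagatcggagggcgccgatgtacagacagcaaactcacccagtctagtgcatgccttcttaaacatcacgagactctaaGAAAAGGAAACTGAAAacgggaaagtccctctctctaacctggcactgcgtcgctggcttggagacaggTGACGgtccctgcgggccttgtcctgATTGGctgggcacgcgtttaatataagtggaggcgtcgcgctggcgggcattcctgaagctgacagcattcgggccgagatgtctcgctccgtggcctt

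TAPBP: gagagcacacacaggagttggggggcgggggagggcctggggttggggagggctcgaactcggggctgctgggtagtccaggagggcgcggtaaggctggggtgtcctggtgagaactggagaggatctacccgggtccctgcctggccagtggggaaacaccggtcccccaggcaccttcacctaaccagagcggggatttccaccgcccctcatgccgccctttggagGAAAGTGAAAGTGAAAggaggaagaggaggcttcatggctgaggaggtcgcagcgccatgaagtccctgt

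The interferon element core was found in the windows of 5 of the 8 genes (B2M, TAP1, TAP2, TAPBP and PSMB8), against 3.57% of all 35116 windows in the table. In B2M, TAP1 and TAPBP it was present as 2 overlapping matches. The enhancer A core was found in HLA-B and HLA-C, against 0.888% of all windows. The short X2-like motif was found in 6 of the 8 genes and the Y box in 5 of the 8, against 24.6% and 34.6% of all windows. In HLA-B, HLA-C and B2M the X2-like motif lay upstream of a Y box, beginning 106, 105 and 75 bases before the start site. The counts are of genes and the shares of windows, and TAP1 and PSMB8 have 2 windows each. Only exact matches were counted, so an element with other letters or outside a window was missed. The TAP1 matches to the interferon element core lay between the start sites of TAP1 and PSMB9, outside the PSMB9 window. These matches describe letters in a window and say nothing of binding.

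**Figure D1:**
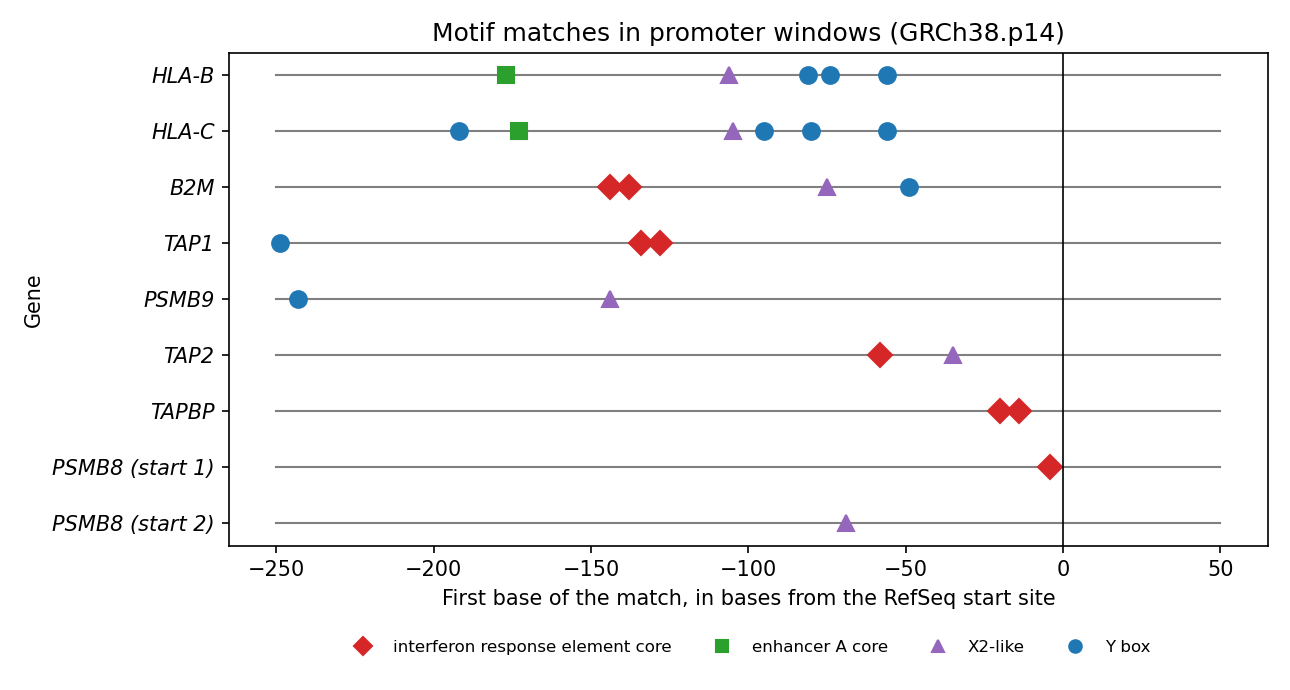
Positions of motif matches along each promoter window, with the distance in bases from the RefSeq start site on the x axis and 1 line per gene (PSMB8 has 2 annotated start sites; the TAP1 start nearest to PSMB9 is drawn). Diamonds for the interferon element core appear in 5 genes, and squares for the enhancer A core in HLA-B and HLA-C alone.

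The hairpins lowered their target in every silenced library. STAG2 stood at 16.8, 34.7 and 27.7 FPKM in control replicates 1 to 3, at 3.76, 4.13 and 5.34 with sh1 and at 3.41, 4.93 and 3.48 with sh2. One control library stood apart: the summed FPKM was 516464 in shNT replicate 1 and between 397792 and 434433 in the other 8. In that library genes with long transcripts were lower relative to their mean (rho = -0.59 by Spearman over 10721 genes, not independent of each other), against -0.048 to 0.30 in the others. Decimal points lost in the deposited table were restored in 13 of the 81 values of these genes, 8 of them in B2M. Depth per library is not stated and is treated as unknown.

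B2M, the invariant light chain, had the highest level of the 9 genes, with a mean of 363 FPKM over the 9 libraries (98.7th percentile of the tested genes). HLA-E followed at 75.8 FPKM, then TAPBP at 46.2, HLA-C at 46.0, PSMB8 at 40.7, TAP2 at 21.1, HLA-B at 16.9, TAP1 at 15.1 and PSMB9 at 13.1. TAPBP and HLA-C differed by less than their spread, as did HLA-B, TAP1 and PSMB9 among themselves. The genes differed more in how far they varied. The coefficient of variation over 9 libraries was 4.69% for HLA-E and 8.23% for TAPBP, between 16.1% and 31.7% for B2M, TAP1, HLA-C, TAP2 and PSMB8, and 39.7% and 41.5% for PSMB9 and HLA-B. HLA genes carry many alleles and share sequence, so reads can be lost or misplaced when they are placed on a single reference. In the longest GENCODE 29 transcript of each gene, 2.54% of the 50-base words of HLA-B, 6.39% of those of HLA-C and 5.13% of those of HLA-E also occur in a transcript of another gene. For TAP2 the share was 35.8%, all of it in 1 overlapping transcript model, AL669918.1. B2M, PSMB8 and PSMB9 shared none. The PSMB9 gene model in GENCODE 29 overlaps TAP1 and PSMB8 on the other strand, and whether reads were counted by strand is not given in the sources used here.

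No gene of the 9 passed the test in any comparison, over all tested genes in limma with Benjamini-Hochberg adjustment (threshold 0.05). With sh1 against shNT 0 of 9 passed, where 0.167% of all tested genes passed. With sh2 against shNT and with both hairpins against shNT 0 of 9 passed, where 0.00837% of tested genes, STAG2 alone, passed in each. Between the hairpins 0 of 9 passed, where 0.218% did. At an unadjusted p under 0.05 there were 2 of 9 with sh1 (PSMB8 and PSMB9, both lower; 13.5% of all tested genes), 0 of 9 with sh2 (12.7%), 1 of 9 over both hairpins (PSMB8, lower; 12.6%) and 3 of 9 between the hairpins (HLA-C, TAP1 and PSMB9, all higher with sh2; 14.1%). These unadjusted counts rested on single libraries. With sh1 the count was 0 without sh1 replicate 1 and 4 without shNT replicate 2, and over both hairpins it was 3 without shNT replicate 2 and 0 without any 1 of shNT replicates 1 and 3, sh1 replicates 1 and 3 and sh2 replicates 1 and 2. Between the hairpins it was 1 without replicate 1 of either hairpin and 5 without shNT replicate 3. The counts over all 11952 tested genes moved too. With sh1, 797 were higher and 821 lower with all libraries, 287 and 397 without sh1 replicate 1, and 1137 and 1097 without shNT replicate 2. Over both hairpins these were 745 and 759, and 1282 and 1322 without shNT replicate 2. Between the hairpins they were 847 and 837, and 990 and 944 without shNT replicate 3. They were 477 and 424 without sh1 replicate 1, and 506 and 445 without sh2 replicate 1. Fold changes below are log2 differences of FPKM + 1, which understate the change of low genes, and the SE comes from the same limma fit. The comparisons with shNT share their control libraries.

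**Figure D2:**
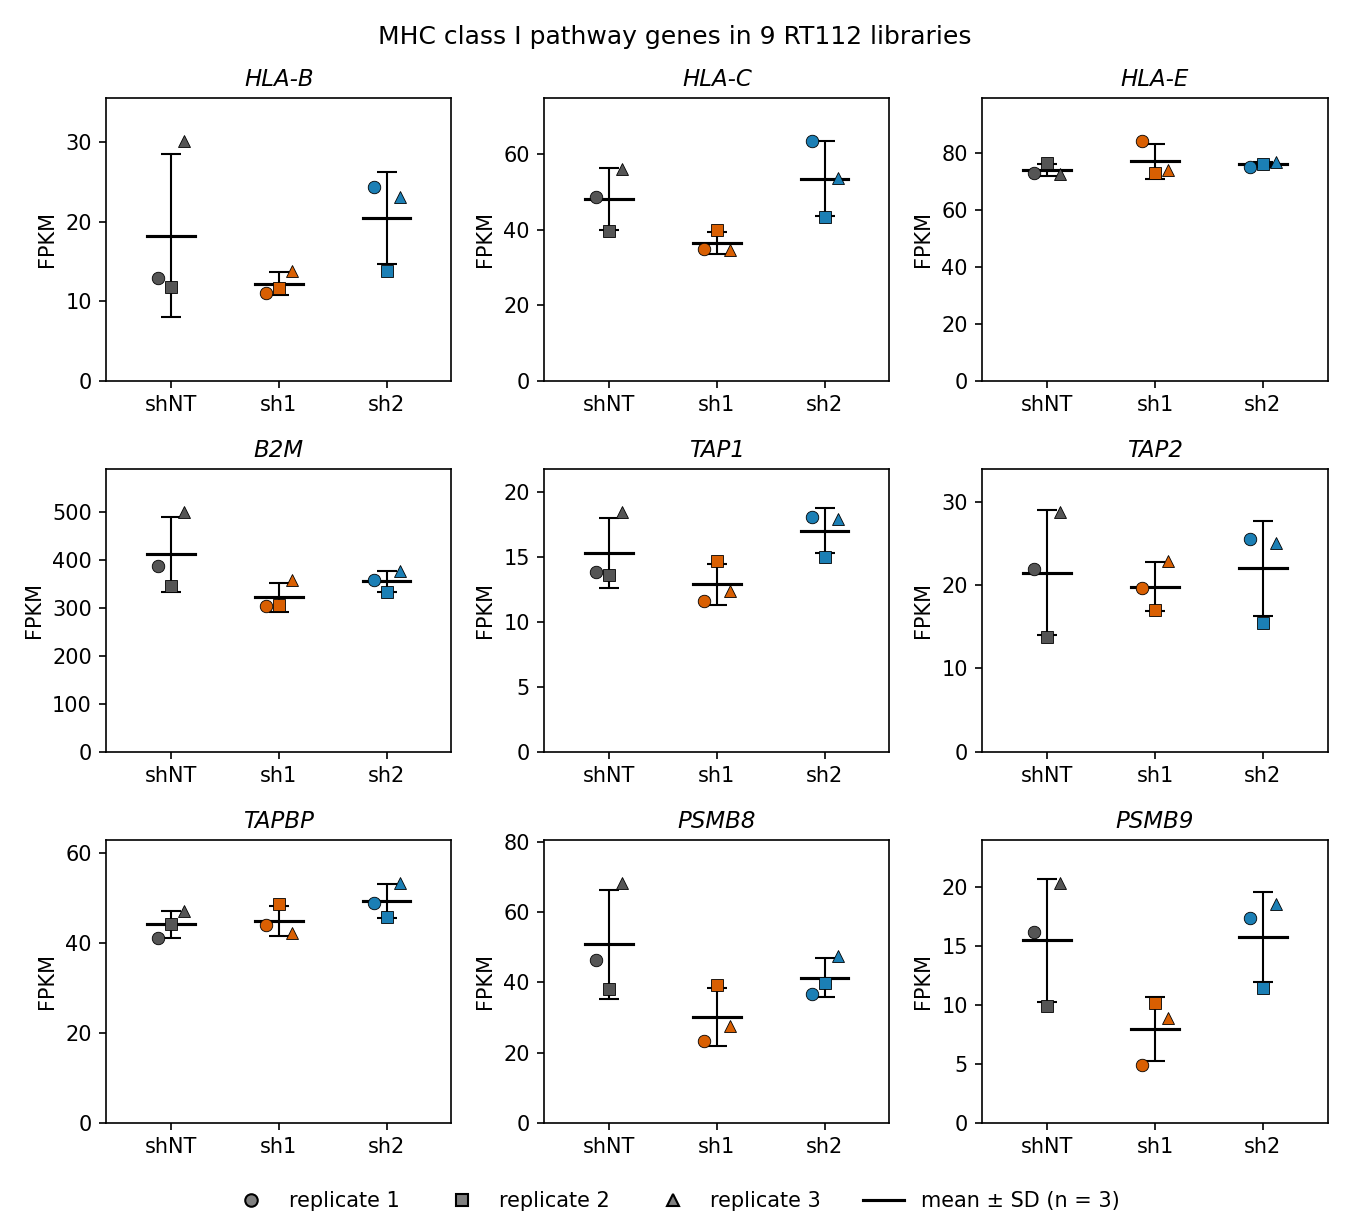
FPKM of each gene in every library (y axis from 0, 1 panel per gene), by group, with marker shape for the replicate number and bars for the mean ± SD of 3 libraries. HLA-B, B2M, TAP1, TAP2, PSMB8 and PSMB9 each have their highest value in shNT replicate 3, while HLA-E and TAPBP lie close together in all groups.

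HLA-B and HLA-C are the classical heavy chains that present peptide to CD8 T cells. HLA-B stood at 12.9, 11.7 and 30.1 FPKM in control replicates 1 to 3, at 11.05, 11.6 and 13.8 with sh1 and at 24.4, 13.8 and 23.1 with sh2. The high libraries were shNT replicate 3 and sh2 replicates 1 and 3, and all others lay between 11.05 and 13.8. The groups overlapped, and the spread among controls (18.2 ± 10.3 FPKM, SD, n = 3) was wider than that with sh1 (12.1 ± 1.45, SD, n = 3). With sh1 the log2 difference was -0.43 (limma adjusted p = 0.589), with sh2 it was 0.24 (limma adjusted p = 0.740), and between the hairpins 0.67 (limma adjusted p = 0.389), with an SE of 0.33 for each. HLA-C stood at 48.7, 39.6 and 55.9 FPKM in control libraries, at 34.8, 39.9 and 34.5 with sh1 and at 63.4, 43.4 and 53.6 with sh2. Every sh2 library lay above every sh1 library for HLA-C. The controls overlapped both groups, and sh1 replicates 1 and 3 lay below every control. With sh1 the log2 difference was -0.38 (limma adjusted p = 0.381), with sh2 it was 0.15 (limma adjusted p = 0.708), and between the hairpins 0.53 (limma adjusted p = 0.230), with an SE of 0.17 for each.

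HLA-E, a nonclassical heavy chain that presents signal peptides to natural killer cells, was flat. It stood at 73.1, 76.5 and 72.8 FPKM in control libraries, at 84.3, 73.1 and 74.2 with sh1 and at 75.3, 76.2 and 76.97 with sh2. The highest library, sh1 replicate 1, was 1.16 times the lowest. The log2 differences were 0.055 with sh1 and 0.038 with sh2 (SE 0.12 each, limma adjusted p = 0.865 and 0.891). B2M stood at 388, 346 and 499 FPKM in control libraries, at 305, 305 and 357 with sh1 and at 358, 332 and 376 with sh2. Control replicate 3 stood above all other libraries, which lay between 305 and 388 FPKM. With sh1 the log2 difference was -0.34 (limma adjusted p = 0.438), and with sh2 it was -0.19 (limma adjusted p = 0.619), each with an SE of 0.18; the latter turned to 0.061 with spike-in scaling and 0.044 with quantile normalization.

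TAP1 and TAP2 form the peptide transporter, and TAPBP encodes tapasin. TAP1 stood at 13.9, 13.6 and 18.5 FPKM in control libraries, at 11.7, 14.7 and 12.4 with sh1 and at 18.1, 15.0 and 18.0 with sh2. As with HLA-C, the sh1 and sh2 libraries did not overlap with each other, the controls overlapped both, and sh1 replicates 1 and 3 lay below every control. The log2 difference between the hairpins was 0.38 (SE 0.16, limma adjusted p = 0.316), made of -0.23 with sh1 and 0.15 with sh2 (SE 0.16 each, limma adjusted p = 0.553 and 0.662). TAP2 stood at 21.97, 13.8 and 28.8 FPKM in control libraries, at 19.6, 17.0 and 22.9 with sh1 and at 25.6, 15.5 and 25.1 with sh2. Its lowest value in the control and sh2 groups, and in sh1 as well, was replicate 2. The log2 differences were -0.065 and 0.058 (SE 0.27 each, limma adjusted p = 0.938 and 0.930), far inside that spread. TAPBP stood at 41.1, 44.4 and 47.1 FPKM in control libraries, at 44.1, 48.7 and 42.2 with sh1 and at 48.9, 45.7 and 53.3 with sh2. The groups overlapped, with log2 differences of 0.025 and 0.15 (SE 0.12 each, limma adjusted p = 0.949 and 0.572).

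PSMB8 and PSMB9 encode catalytic subunits that replace the constitutive ones in the immunoproteasome, which favours peptides suited to class I. They had the lowest log2 differences of the 9 with sh1. PSMB8 stood at 46.3, 38.0 and 68.2 FPKM in control libraries, at 23.3, 39.2 and 27.7 with sh1 and at 36.7, 39.8 and 47.4 with sh2. Replicates 1 and 3 of sh1 lay below every control, and replicate 2 did not. With sh1 the log2 difference was -0.73 (limma adjusted p = 0.248), with sh2 it was -0.26 (limma adjusted p = 0.625), and between the hairpins 0.47 (limma adjusted p = 0.411), with an SE of 0.24 for each. PSMB9 stood at 16.2, 9.93 and 20.3 FPKM in control libraries, at 4.93, 10.2 and 8.87 with sh1 and at 17.4, 11.4 and 18.6 with sh2. Every sh2 library lay above every sh1 library, and shNT replicate 2 fell among the sh1 values. For PSMB9 the log2 difference was -0.87 with sh1 (limma adjusted p = 0.268), 0.053 with sh2 (limma adjusted p = 0.944) and 0.93 between the hairpins (limma adjusted p = 0.229), with an SE of 0.30 for each. The sh1 values rest in part on 1 library: without sh1 replicate 1 they were -0.57 for PSMB8 and -0.60 for PSMB9 (limma adjusted p = 0.867 and 0.868). The difference between the hairpins for PSMB9 was then 0.65 (limma adjusted p = 0.664).

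**Figure D3:**
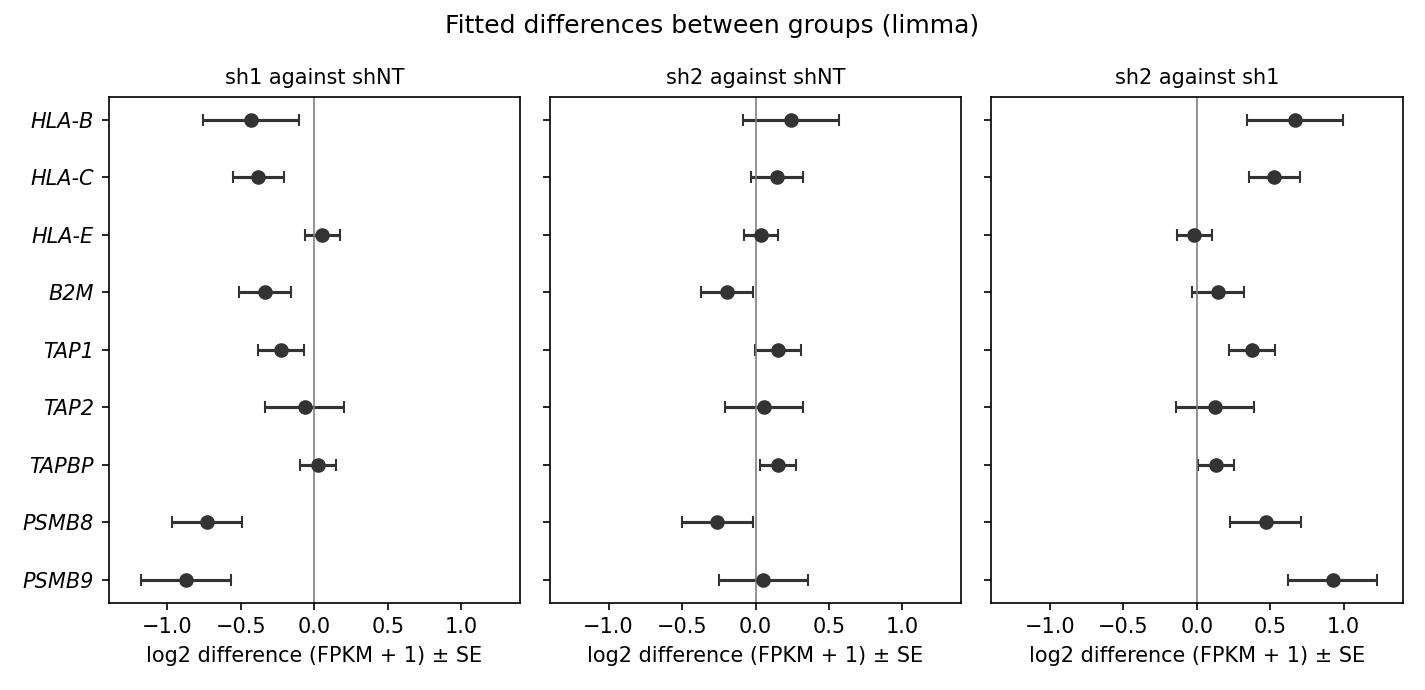
Log2 differences of FPKM + 1 from limma for each gene (points, with bars of 1 SE), in 3 panels for sh1 against shNT, sh2 against shNT and sh2 against sh1. With the scaling as deposited, 7 of the 9 points lie below 0 in the first panel, 7 above 0 in the second and 8 above 0 in the third, and none passed the adjusted threshold.

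Counted over the 9 genes, the median log2 difference was -0.34 with sh1 and 0.058 with sh2, beside -0.0074 and -0.012 over all tested genes. Over both hairpins it was -0.095, beside -0.017 over all tested genes. Between sh2 and sh1 it was 0.38, beside -0.0072. Of the 9 genes 8 had a higher fitted value with sh2 than with sh1, HLA-E being the exception at -0.017, which turned to 0.13 with spike-in scaling and 0.055 with quantile normalization. In 3 of 9 (HLA-C, TAP1 and PSMB9) all sh2 libraries lay above all sh1 libraries, where 13.3% of all tested genes did so. Spike-in scaling moved the median of all tested genes to 0.21 with sh2, 0.14 over both hairpins and 0.12 between the hairpins. It moved the median of the 9 genes to 0.30, 0.073 and 0.52 in the same comparisons. The comparisons with shNT depended on shNT replicate 3. Without that library the median of the 9 genes was -0.092 with sh1, 0.26 with sh2 and 0.034 over both.

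Within replicate numbers the difference between the hairpins was uneven. In replicate 1 the sh2 library was higher than the sh1 library in 8 of 9 genes with a median log2 difference of 0.60, and in replicate 3 it was higher in 9 of 9 with a median of 0.51. In replicate 2 it was higher in 7 of 9 with a median of 0.058. Of the 9 genes 6 were higher with sh2 in all 3 replicate numbers, as were 27.0% of all tested genes. With sh1 against shNT, 0 of 9 were higher and 2 of 9 lower in all 3 numbers (18.3% and 18.2% of all tested genes), and with sh2 against shNT 1 of 9 was higher and 1 of 9 lower (20.7% and 22.5%).

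Most of the 9 genes varied together over the libraries. As a description over 9 libraries, which share their scaling and groups, Pearson's r of log2(FPKM + 1) was above 0 in 29 of 36 gene pairs, with a median of 0.60. The highest was 0.92, between HLA-C and TAP1. Values for pairs of other genes over the same libraries are not given here, so these have no baseline. TAP1 and PSMB9, the divergent pair, had r = 0.88 (Spearman's rho = 0.93), and r = 0.80 without the 2 libraries farthest from the median. HLA-B and HLA-C had r = 0.84 (rho = 0.70), and r = 0.71 without those farthest from the median. For HLA-E, r with the others ran from -0.67 (PSMB9) to 0.0024 (TAPBP). These values can rest on few libraries: with B2M it was -0.51 (rho = -0.55), and 0.14 without sh1 replicate 1 and shNT replicate 3. The mean deviation of the 9 genes from their own averages was 0.43 in shNT replicate 3, 0.27 in sh2 replicate 3 and 0.23 in sh2 replicate 1 on the log2 scale. It was -0.36, -0.15 and -0.19 in the sh1 libraries, -0.088 in sh2 replicate 2, -0.18 in shNT replicate 2 and 0.038 in shNT replicate 1. The 3 highest libraries therefore belong to both control and silenced groups.

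**Figure D4:**
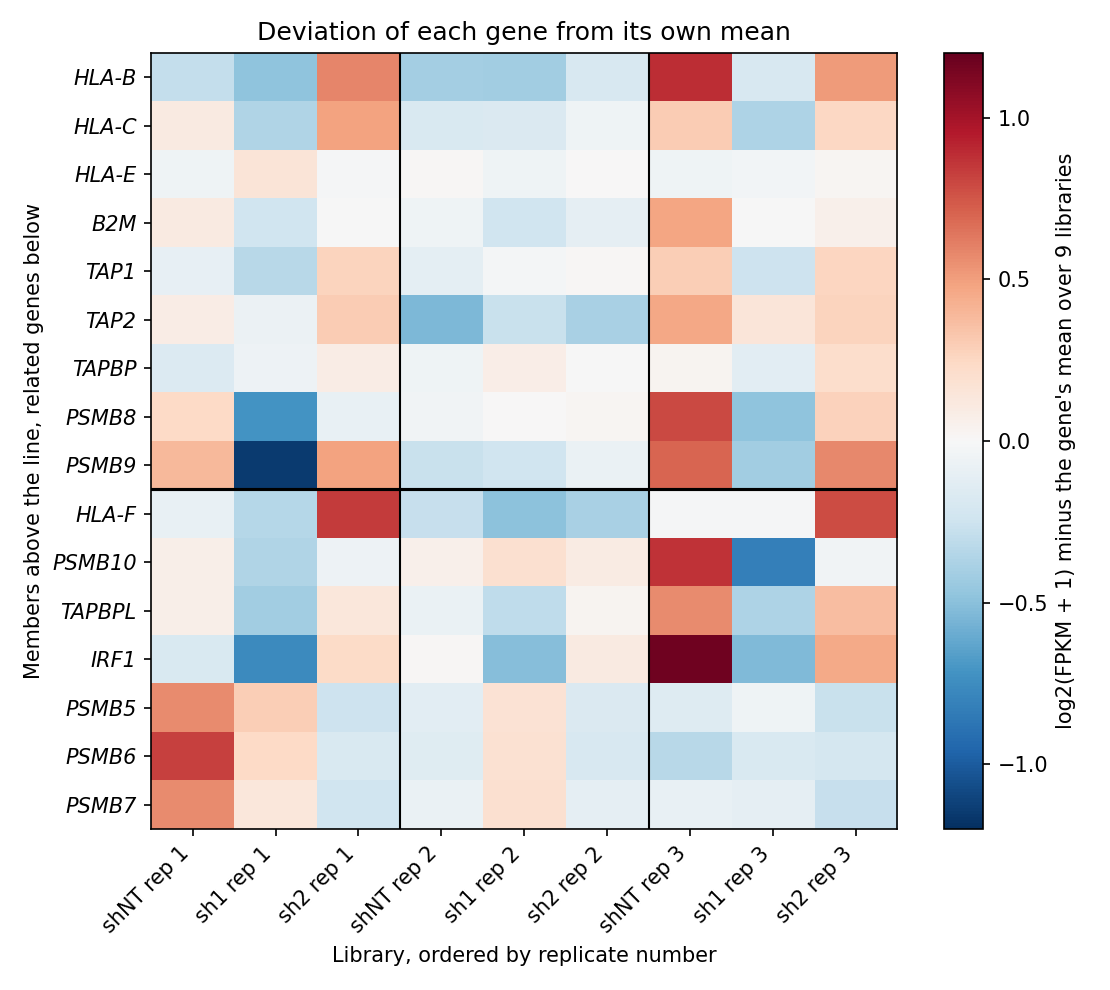
Heat map of log2(FPKM + 1) minus each gene's mean over 9 libraries (colour, red above and blue below), with libraries ordered by replicate number on the x axis, the 9 genes above the line and related genes below it. The columns of shNT replicate 3 and sh2 replicates 1 and 3 are red for most of the 9 genes and for IRF1, and the columns of sh1 replicates 1 and 3 are mostly blue.

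Markers of other cell types were read beside this pattern. Summed immune markers stood at 13.99 FPKM in shNT replicate 3 and at 5.23 to 9.11 in the other libraries. CD68, a lysosomal protein that is not limited to immune cells, made up 12.1 FPKM of the former. The defining leukocyte gene PTPRC reached at most 0.266 FPKM, CD3E at most 0.0532 and CD14 at most 0.0769 in any library, while MS4A1 was listed at 0. Of 15 immune markers 13 were below 1 FPKM in all 9 libraries. Summed urothelial carcinoma markers, led by KRT5, were lowest in shNT replicate 3, at 3043 FPKM against 4805 to 7957 in the others. KRT5 itself stood at 518 FPKM in that library and at 1664 to 4149 in the others. The keratins KRT7, KRT8 and KRT19 were also lowest there. Other markers of the same list went the other way: FOXA1, GATA3, PPARG, FGFR3 and EPCAM were highest in shNT replicate 3. Fibroblast markers other than LUM (at most 408 FPKM) and COL1A1 (at most 6.85), and endothelial markers other than EGFL7 (at most 26.3), stayed below 1 FPKM. Summed fibroblast markers were 206 to 414 FPKM in controls, 152 to 290 with sh1 and 121 to 377 with sh2, and summed endothelial markers 15.8 to 27.7, 18.2 to 24.8 and 12.6 to 18.6. Their part in the pattern was not tested. In bulk RNA, fewer cells of a kind and less RNA per cell cannot be told apart.

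The genes most like the mean of the 9, by Pearson's r over the 9 libraries, were CDC42EP4 (r = 0.97), BTN3A2 (0.96), TRIM7 (0.95), PTAFR (0.95) and TAPBPL (0.94). BTN3A2 is a butyrophilin gene of the extended MHC region, and TAPBPL encodes a tapasin-related peptide editor. BTN3A2 stood at 7.55, 6.22 and 10.8 FPKM in control libraries, at 4.77, 5.97 and 5.99 with sh1 and at 10.8, 6.52 and 11.9 with sh2. Its high libraries were the same 3 as for HLA-B. For single genes the 2 most alike were PHF15 and BTN3A3 for HLA-B, APOL2 and IFIT3 for HLA-C, VASH1 and BTN3A3 for TAP1, and DDX24 and BACE2 for TAP2 (r from 0.94 to 0.97). They were RNF208 and TAF1D for B2M, NSUN2 and ARHGEF2 for PSMB8, and MLKL and MOCS1 for PSMB9 (r from 0.96 to 0.97). For HLA-E they were SMG6 and PPP2R5B (0.91 and 0.88), and for TAPBP LZTR1 and TMPRSS13 (0.93 and 0.87). Of 11946 other gene entries 32 (0.268%) had r above 0.9 with the mean of the 9.

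IRF1, the transcription factor that binds interferon elements in class I genes, stood at 9.12, 10.6 and 24.8 FPKM in control libraries, at 5.76, 7.06 and 6.93 with sh1 and at 12.4, 11.4 and 14.7 with sh2. All sh1 libraries lay below all other libraries, and shNT replicate 3 stood far above the rest. How many of all tested genes have every sh1 library below all others was not counted. For IRF1 the log2 difference was -0.94 with sh1 (limma adjusted p = 0.236), -0.072 with sh2 (limma adjusted p = 0.921) and 0.86 between the hairpins (limma adjusted p = 0.247), with an SE of 0.30 for each. IRF1 followed the mean of the 9 genes with r = 0.90 (rho = 0.92) over 9 libraries, and with r = 0.76 without shNT replicate 3 and sh1 replicate 1. NLRC5, the class I transactivator, lay between 0.163 and 0.751 FPKM in all libraries and was too low to be tested. RFXANK, a subunit of the RFX factor that binds X boxes, had -0.28 over both hairpins (SE 0.15, limma adjusted p = 0.429).

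In the list of 14 class I regulators 12 were tested and 0 passed in limma in any of the 4 comparisons, with a median of -0.11 over both hairpins. Of 19 genes of interferon receptors and signalling 17 were tested and 0 passed in any comparison, with a median of 0.10. STAT3, a factor for cytokine signals, had the second largest difference in that list after IRF1, at 0.42 over both hairpins (SE 0.16, limma adjusted p = 0.358). Of 42 interferon-stimulated genes outside the pathway 31 were tested. None of them passed in limma in any comparison, and their median was -0.22 with sh1, 0.29 with sh2 and 0.25 between sh2 and sh1, with 24 of 31 higher with sh2 than with sh1. At an unadjusted p under 0.05, 9 of 31 were higher with sh2 than with sh1 and 0 lower, beside 847 higher and 837 lower of the 11952 genes tested. GBP1 and IFI27, both induced by interferon, had 1.00 and 0.96 over both hairpins (SE 0.44 and 0.43, limma adjusted p = 0.393 and 0.398). GBP1 did not share the pattern of the 9 genes: it stood at 3.33, 10.7 and 3.56 FPKM in control libraries, at 13.8, 13.7 and 5.57 with sh1 and at 18.3, 17.3 and 5.81 with sh2, and was low in every library of replicate 3.

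The other class I chains described were HLA-F and HLA-G. HLA-F, a nonclassical chain, reached 2.54 and 2.42 FPKM in sh2 replicates 1 and 3 and stayed at or below 0.968 in the other 7 libraries. Its log2 difference with sh2 was 0.54 (SE 0.30, limma adjusted p = 0.445). HLA-G was below 0.1 FPKM throughout. Of the 10 genes of peptide transport and loading, 10 were tested and 0 passed in limma in any comparison. Their medians were -0.14 with sh1 and 0.037 with sh2, and 10 of 10 had a higher fitted value with sh2 than with sh1. TAP1, TAP2 and TAPBP are among the 10, so this count in part repeats the values given above. The differences between the hairpins ran from 0.028 (PDIA3, SE 0.16) to 0.61 (ERAP2, SE 0.21). Their median was 0.17, beside -0.0072 over all tested genes. TAPBPL had the largest difference over both hairpins (-0.28, SE 0.15, limma adjusted p = 0.444), with 5.004, 5.49 and 5.21 FPKM with sh1 against 6.63 to 10.9 in the other 6 libraries. CANX, the chaperone calnexin, had -0.14 (SE 0.18, limma adjusted p = 0.727). The share of tested genes with all sh1 libraries below the other 6, as in TAPBPL, was not counted.

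The proteasome was compared within libraries, since a ratio of 2 genes in 1 library depends little on scaling between libraries. PSMB10, also a catalytic subunit of the immunoproteasome, stood at 25.3, 25.2 and 44.7 FPKM in control libraries, at 18.5, 27.6 and 13.2 with sh1 and at 23.0, 25.8 and 23.4 with sh2. The constitutive counterparts PSMB5, PSMB6 and PSMB7 were highest in shNT replicate 1, at 221, 147 and 132 FPKM, the library with the length trend. In the other 8 libraries they ranged from 122.7 to 182, from 65.9 to 98.4 and from 73.0 to 101.5 FPKM. All 3 had a lower fitted value with sh2 than with sh1 (median log2 difference -0.28, none passing in limma). PSMB5 stood at 122.7 to 131.0 FPKM with sh2 and at 142.7 to 182 with sh1. The denominators of the ratios below therefore differ between the hairpins as well, while PSMB10 itself overlapped between them. The ratio of PSMB8 to PSMB5 was 0.210, 0.280 and 0.512 in control libraries, 0.128, 0.235 and 0.194 with sh1 and 0.294, 0.304 and 0.386 with sh2. The sh1 and sh2 groups did not overlap. The ratio of PSMB9 to PSMB6 was 0.110, 0.132 and 0.308 in control libraries, 0.0501, 0.107 and 0.122 with sh1 and 0.238, 0.157 and 0.258 with sh2. Here too every sh2 library lay above every sh1 library, as it did for PSMB10 to PSMB7 (0.160 to 0.272 with sh1, 0.307 to 0.320 with sh2). How often ratios of other genes separate in this way was not counted.

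The 6 silenced libraries were compared with the 3 controls by exact permutation tests, two-sided, on log2 ratios of FPKM + 1 for 9 pairs chosen by role, with Benjamini-Hochberg adjustment over the 9. None passed. The smallest unadjusted p was 0.0952 (HLA-E to B2M), and the adjusted values ran from 0.643 to 1, where 0.0238 is the smallest unadjusted p that 6 against 3 allows. The log2 ratio differed by -0.35 for PSMB8 to PSMB5 and by -0.24 for PSMB9 to PSMB6 (exact p = 0.452 and 0.643), and both turned positive without shNT replicate 3, to 0.0063 and 0.20. The latter also turned, to 0.024, without sh1 replicate 1. The ratio of HLA-B to HLA-C, the heavy chains with similar promoters, was 0.264, 0.297 and 0.539 in control libraries, 0.318, 0.291 and 0.399 with sh1 and 0.385, 0.317 and 0.432 with sh2. It was highest in replicate 3 of each group. The difference between silenced and control libraries was 0.022 on the log2 scale (exact p = 1). The ratio of TAP1 to PSMB9, the divergent pair, was 2.36, 1.45 and 1.39 with sh1, 0.857, 1.37 and 0.909 in control libraries and 1.04, 1.31 and 0.969 with sh2. Silenced and control libraries differed by 0.37 in its log2 value (exact p = 0.143). Between sh2 and sh1, compared over the same 9 ratios after their values were seen, the smallest exact p was 0.1, the least that 3 against 3 allows; it was reached by PSMB8 to PSMB5, PSMB9 to PSMB6, PSMB10 to PSMB7, TAP1 to PSMB9 and HLA-B to B2M.

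**Figure D5:**
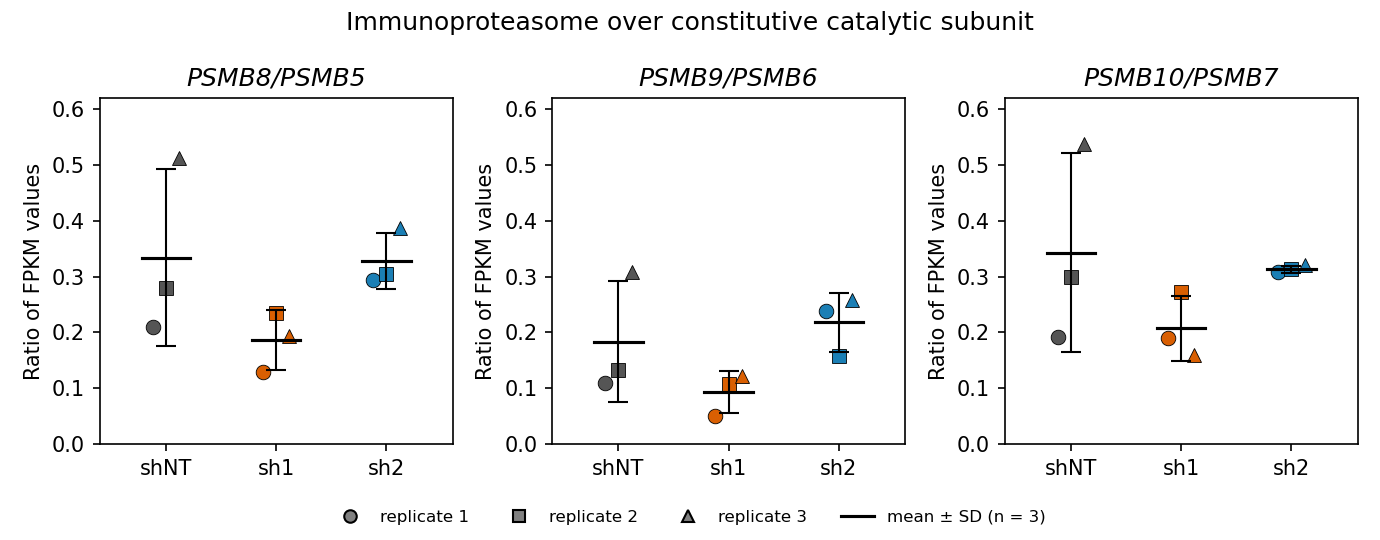
Ratio of the FPKM of each immunoproteasome subunit to that of its constitutive counterpart (y axis from 0), by group, with marker shape for the replicate number and bars for the mean ± SD of 3 libraries. In each panel the 3 sh2 libraries lie above the 3 sh1 libraries, and shNT replicate 3 is the highest library. The constitutive counterparts had lower fitted values with sh2 than with sh1, which raises the sh2 ratios.

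The wider immunoproteasome list holds PSMB8, PSMB9, PSMB10, the activator subunits PSME1, PSME2 and PSME3 and the assembly factor POMP. Of these 7 genes 7 were tested and 0 passed in limma in any comparison. All 7 had a fitted value below 0 over both hairpins, with a median of -0.47, and the 3 constitutive subunits had a median of -0.17. PSME1, part of the activator that opens the proteasome, stood at 151, 122 and 191 FPKM in control libraries, at 78.0, 129.5 and 96.3 with sh1 and at 91.8, 113.9 and 124.3 with sh2. Its log2 difference over both hairpins was -0.54 (SE 0.20, limma adjusted p = 0.346), the largest in the list, and that of PSMB10 was -0.50 (SE 0.24, limma adjusted p = 0.407).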

How the data were processed

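RNA of 9 RT112 libraries was measured by stranded poly(A)+ sequencing, per the labels' protocols, and libraries were grouped by the hairpin that their titles name. What the authors deposited is 1 table of FPKM values. Per the submitters' processing notes the genome build is hg19. Aligner, counting program and scaling: not given in the sources used here. All columns belong to the 9 libraries.

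Division by 1000 was applied to 10255 of the 10270 entries that lacked a point. Where the gene had values that kept a point, an entry was divided if this brought it closer to them (in log units). For 1329 of the divided entries the gene had no such value, so this comparison could not be made. The main test was limma 3.58.1 in R 4.3.3 on log2(FPKM + 1), with a variance trend, on genes with a mean of at least 1 FPKM, in 1 model over all 9 libraries (two-sided, Benjamini-Hochberg adjustment over 11952 genes). It was checked on simulated data for both hairpins against shNT only. Of 200 genes given a log2 difference of 2 there, 98% were recovered, and 12 unaltered genes were called. Recovery of smaller differences, such as those of the 9 genes, was not tested. Exact permutation tests, promoter matching and correlations used Python 3.11.15 with scipy 1.17.1 and pandas 2.3.3. Same-numbered libraries deviated together from their group means (r from 0.12 to 0.49 in all 9 pairs). Pairs with different numbers had r from -0.63 to 0.20, so the ranges overlap. Replicate numbers were taken to pair libraries, from the data and not the labels. The main limma fit and the exact tests given above did not use this pairing, and the fit with a replicate block is an alternative. Other alternatives were the pseudocount (0.1, 0.5, and 0 for ratios), the filter (none, 5 FPKM), 3 scalings, array weights, only the groups compared, restored values left out, and leaving out each library. The genes named beside the 9 are, per list, those that passed and the 2 with the largest difference over both hairpins, plus PSMB5, PSMB6, PSMB7, NLRC5 and IRF1, and the genes most alike by r; some genes under this rule are not reported here. Of the marker lists the text names only leading or defining genes. The 9 genes, the lists and the tests were chosen with earlier results of these data known.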

Additional observations from a re-analysis of the deposited data

How the results depend on the processing

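None of the 9 genes, where fitted, passed in limma in any comparison under any alternative run, the replicate block included. None of the 9 ratios passed in any of them either. The alternatives differed in how many of all tested genes passed. With sh1, none passed under spike-in scaling, STAG2 included. With only the groups compared, none passed with sh1 or with sh2 against shNT. Array weights called 250 genes higher and 208 lower between the hairpins, of 11952 tested. With the replicate block the lowest adjusted p was 0.151 with sh1, 0.477 with sh2, 0.252 over both and 0.154 between the hairpins; the block changed no call. Array weights gave the lowest adjusted p of any setting, 0.0865 (HLA-C between the hairpins). Over both hairpins, only the groups compared could not be run as a separate setting, and B2M, with 1 value that had kept its point, could not be fitted with restored values left out. Of 806 alternative values for single genes and ratios 761 kept their direction and 45 turned, none of them a call. The cause was not tested.

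With spike-in scaling, the differences over both hairpins turned to 0.073 (HLA-B), 0.059 (HLA-C), 0.13 (TAP1) and 0.17 (TAP2), those of TAP2 with sh1 to 0.034 and of B2M with sh2 to 0.061, and that of HLA-E between the hairpins to 0.13. Quantile normalization gave 0.011 (TAP2 over both), 0.044 (B2M with sh2) and 0.055 (HLA-E between the hairpins), and median-of-ratios scaling 0.0074 (TAP2 over both). Array weights gave 0.0035 (TAP1 over both), 0.13 (TAP2 over both) and 0.049 (TAP2 with sh1).

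On leaving out 1 library, values that turned had these ranges. With sh1 they were -0.0090 to 0.092 (HLA-E), -0.34 to 0.16 (TAP2) and -0.032 to 0.071 (TAPBP). With sh2 they were -0.22 to 0.27 (PSMB9) and -0.21 to 0.29 (TAP2). Over both hairpins they were -0.33 to 0.31 (HLA-B), -0.11 to 0.097 (TAP1) and -0.28 to 0.23 (TAP2). Between the hairpins it was -0.054 to 0.047 (HLA-E). For log2 ratios they were -0.63 to 0.0063 (PSMB8 to PSMB5), -0.53 to 0.20 (PSMB9 to PSMB6), -0.65 to 0.079 (PSMB10 to PSMB7), -0.14 to 0.17 (TAP1 to TAP2) and -0.17 to 0.32 (HLA-B to HLA-C). Without shNT replicate 3 the ratios of PSMB8, PSMB9 and PSMB10 to their counterparts turned together. Depth is unknown, and the spread between 3 libraries a group sets the precision.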

Other observations

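Ligands that natural killer cells and T cells read beside class I were compared from a list of 15 genes, of which 14 were in the table and tested. None passed in limma in any comparison, and at an unadjusted p under 0.05 there were 5 of 14 over both hairpins, all higher, beside 12.6% of all tested genes. The median log2 difference was 0.23 with sh1, 0.19 with sh2 and 0.21 over both, beside -0.017 over all tested genes. RAET1L, a ligand of the activating receptor NKG2D, stood at 1.88, 1.91 and 0.374 FPKM in control libraries, at 5.69, 1.79 and 3.61 with sh1 and at 4.39, 2.90 and 3.86 with sh2. All silenced libraries but sh1 replicate 2 lay above all controls (1.01 over both, SE 0.31, limma adjusted p = 0.328). PDCD1LG2, which encodes the checkpoint ligand PD-L2, stood at 0.156, 0.790 and 0.160 FPKM in control libraries, at 1.69, 1.03 and 0.943 with sh1 and at 3.24, 1.97 and 1.17 with sh2. All 6 silenced libraries lay above all controls (0.94 over both, SE 0.23, limma adjusted p = 0.314). How many of all tested genes separate in this way was not counted. CD274, which encodes PD-L1 and was singled out after its values were seen, stood at 0.329 to 0.814 FPKM in control libraries, at 0.906 to 1.57 with sh1 and at 1.46 to 2.14 with sh2. Its log2 difference over both hairpins was 0.62 (SE 0.16, limma adjusted p = 0.314).

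MHC class II genes were near absent: of the 12 measured only 2 were high enough to be tested, HLA-DMA and HLA-DOB, with log2 differences of -0.11 and 0.46 over both hairpins (SE 0.22 and 0.27, limma adjusted p = 0.837 and 0.476). Of 29 neighbours of the class I genes in the MHC region 24 were tested and 0 passed in limma in any comparison, with a median of -0.10 over both hairpins and -0.057 between them. RPS18, a ribosomal protein gene near TAPBP, had the largest difference there, -0.66 over both (SE 0.25, limma adjusted p = 0.357). Among the urothelial carcinoma markers CDH1, which encodes E-cadherin, had a log2 difference of -1.21 with sh1 (limma adjusted p = 0.0496) and 1.72 between sh2 and sh1 (limma adjusted p = 0.0197). Both calls depended on the setting. With sh1 no gene at all passed in limma under spike-in scaling, with only the groups compared, or without any 1 of shNT replicates 2 and 3, sh1 replicate 1 and sh2 replicates 1 and 3. Between the hairpins none passed with no filter or without any 1 of sh1 replicate 1 and sh2 replicates 1 and 3. Without sh1 replicate 1, 287 genes were higher and 397 lower at an unadjusted p under 0.05 with sh1, and 477 and 424 between the hairpins. KRT5 and KRT8, keratins of epithelial cells, had 0.96 and 0.68 over both hairpins (SE 0.53 and 0.32, limma adjusted p = 0.444 and 0.410).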
